A study of Mus musculus with 6 samples.

Results

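The CXC and CX3C chemokines are described here in endothelial cells (ECs) sorted from MC38 tumors, a subcutaneous model made with a mouse colon carcinoma cell line. The members were chosen by gene symbol, as the 10 genes Cxcl1, Cxcl2, Cxcl9, Cxcl10, Cxcl11, Cxcl12, Cxcl13, Cxcl14, Cxcl16 and Cx3cl1 among the 24346 genes with a value. RNA-sequencing was available for 3 WT and 3 Apelin-KO samples, all from C57BL/6 mice that were 8 to 10 weeks old, with tumors taken at day 19. Apelin-KO mice lack the peptide Apelin in every tissue from development on, so the ECs, the tumor stroma and the immune cells of the host share the deletion. The implanted MC38 cells do not carry it. The sample titles of both groups also name saline, a treatment that the study does not describe for this experiment. The cells were sorted as CD31 positive and CD45 negative, that is, as endothelial and not hematopoietic. The labels do not say whether a sample came from 1 mouse or from pooled mice, so p-values measure the spread between these samples only. The study compared the ECs to learn how Apelin draws T cells into the tumor.

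Chemokines are small secreted proteins that guide leukocytes along a gradient, and ECs display them on heparan sulfate at the vessel wall. Cxcl1 and Cxcl2 attract neutrophils through Cxcr2 and are induced by NF-κB. Cxcl9, Cxcl10 and Cxcl11 are induced by interferon-γ and attract activated T cells and NK cells through Cxcr3. C57BL/6 mice carry a frameshift in Cxcl11 and make no functional protein from it, so its values here are those of a transcript only. Cxcl12 retains and attracts Cxcr4-bearing cells and is scavenged by Ackr3, Cxcl13 recruits B cells through Cxcr5, and Cxcl14 is a constitutively made chemokine of epithelia and stroma. Cxcl16 and Cx3cl1 differ from the others in being made as transmembrane proteins with a chemokine domain on a stalk. In that form they hold cells that carry Cxcr6 or Cx3cr1, and sheddases release them. The coding sequences annotated by GENCODE reflect this difference, with 246 codons for Cxcl16 and 395 for Cx3cl1, against 96 for Cxcl1 and 126 for Cxcl9.

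Several members are neighbors in the genome (GRCm38, GENCODE). Cxcl1 lies at chr5:90891241-90893115 and Cxcl2 at chr5:90903871-90905938, both on the plus strand with 10755 bases between them. Cxcl9 (chr5:92321347-92328079), Cxcl10 (chr5:92346638-92348889) and Cxcl11 (chr5:92359544-92365485) follow each other on the minus strand, with gaps of 18558 and 10654 bases. Cxcl13 lies farther along the same chromosome at chr5:95956951-95961068 on the plus strand. Cxcl12 (chr6:117168535-117181367, plus strand), Cxcl14 (chr13:56288643-56296551, minus strand), Cxcl16 (chr11:70453983-70459984, minus strand) and Cx3cl1 (chr8:94772009-94782427, plus strand) stand apart. Cxcl16 has 5 annotated exons, Cx3cl1 has 3, and each of the other 8 members has 4.

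The RefSeq table of promoters (GRCm38.p6) held 8 of the 10 members, all but Cxcl11 and Cxcl16. In the 250 bases before each start site, on both strands, 3 motifs were searched. They were an interferon-stimulated response element (ISRE, GAAANNGAAA), a gamma-activated site (GAS, TTCNNNGAA) and the κB consensus. Of the 32851 promoters in the table, 2.98% held the ISRE letters, 7.02% the GAS letters and 5.93% the κB consensus. The neighbors Cxcl1 and Cxcl2 are shown since they share a stretch, with capitals for the κB match and the bases that GENCODE counts to the gene left out. The Cxcl1 sequence is chr5:90890995-90891240 and the Cxcl2 sequence chr5:90903649-90903870, both read from the plus strand:
Cxcl1: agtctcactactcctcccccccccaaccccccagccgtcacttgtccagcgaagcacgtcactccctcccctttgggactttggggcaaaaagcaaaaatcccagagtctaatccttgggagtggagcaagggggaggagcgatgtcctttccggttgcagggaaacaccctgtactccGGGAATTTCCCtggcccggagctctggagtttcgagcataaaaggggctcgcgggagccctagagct
Cxcl2: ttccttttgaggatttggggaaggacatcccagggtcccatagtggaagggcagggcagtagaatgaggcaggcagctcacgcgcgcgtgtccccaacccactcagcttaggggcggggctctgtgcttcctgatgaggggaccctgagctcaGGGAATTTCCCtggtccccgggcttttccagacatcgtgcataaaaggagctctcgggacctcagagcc
The longest run common to both windows was GGGAATTTCCCTGG, 14 bases that begin 71 bases before the Cxcl1 start site and 97 bases before that of Cxcl2. No promoter of the table other than these 2 held it.

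The neighbors Cxcl9 and Cxcl10 are shown since their transcript levels came apart in 1 sample. The Cxcl9 sequence is chr5:92328080-92328329 and the Cxcl10 sequence chr5:92348890-92349139, both on the minus strand. Cxcl14, which differed most between genotypes in relative terms, is chr13:56296552-56296801, also on the minus strand:
Cxcl9: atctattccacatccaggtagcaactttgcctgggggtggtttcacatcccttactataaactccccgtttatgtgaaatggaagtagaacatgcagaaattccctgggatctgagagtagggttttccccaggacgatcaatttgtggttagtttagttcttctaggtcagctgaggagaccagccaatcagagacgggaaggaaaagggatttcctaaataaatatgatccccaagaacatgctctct
Cxcl10: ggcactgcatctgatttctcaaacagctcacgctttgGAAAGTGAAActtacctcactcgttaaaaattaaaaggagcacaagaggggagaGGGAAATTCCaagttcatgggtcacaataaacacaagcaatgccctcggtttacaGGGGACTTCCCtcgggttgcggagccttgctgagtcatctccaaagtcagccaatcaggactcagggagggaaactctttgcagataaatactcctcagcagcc
Cxcl14: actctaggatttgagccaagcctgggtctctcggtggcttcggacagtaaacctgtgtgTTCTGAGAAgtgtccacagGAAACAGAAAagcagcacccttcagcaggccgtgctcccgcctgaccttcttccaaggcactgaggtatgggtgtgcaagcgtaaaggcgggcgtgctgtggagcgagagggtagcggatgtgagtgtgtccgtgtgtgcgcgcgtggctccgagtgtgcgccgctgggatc
In Cxcl10 the capitals mark, from the 5′ end, an ISRE match 213 to 204 bases before the start site, a κB match at 159 to 150 and a pair of overlapping κB matches between 104 and 94. In Cxcl14 they mark a GAS match at 191 to 183 and an ISRE match at 172 to 163. The Cxcl9 window held none of the 3 sets of letters, and neither did those of Cxcl12, Cxcl13 and Cx3cl1. These matches describe the sequence and are not measured binding sites.

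Expression was given as FPKM, that is, fragments scaled to transcript length and to the number of mapped reads, so that levels can be compared between genes. Differences between genotypes are given as WT minus Apelin-KO on the scale log2(FPKM + 1), which understates the change of low genes. They were tested with limma, two-sided, over the 10964 genes whose mean reached 1 FPKM, and adjusted p-values are by the Benjamini-Hochberg method over all of these genes. Estimated depth was 8910000 to 10170000 reads per sample, and Pearson correlations of log2(FPKM + 1) across genes were 0.986 to 0.989 within genotypes and 0.982 to 0.990 between them. Apln, the deleted gene (chrX:48025146-48034853), was 432, 435 and 504 FPKM in WT 1, 2 and 3 and 9.96, 17.5 and 24.3 FPKM in Apelin-KO 1, 2 and 3, or 3.78% of the WT mean. It was the only gene with an adjusted p under 0.05 (adjusted p = 0.00747 from limma), which is 0.00912% of those tested.

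Cxcl10 and Cxcl9, which attract T cells, were the most abundant of the family in tumor ECs by mean level in both genotypes. Cxcl10 had the highest mean level, 228 FPKM over the 6 samples and rank 321 among all genes, followed by Cxcl9, Cxcl12, Cx3cl1, Cxcl16, Cxcl1, Cxcl11, Cxcl2, Cxcl14 and Cxcl13. Cxcl10 exceeded Cxcl9, Cxcl9 exceeded Cxcl12, and Cxcl12 exceeded Cx3cl1 in 6 of 6 samples. Between neighbors in this order, the ranges over samples did not overlap only for Cxcl12 and Cx3cl1. Cx3cl1 was above Cxcl16 in 4 of 6 samples and Cxcl14 above Cxcl13 in 4 of 6. Cxcl1 was above Cxcl11, Cxcl11 above Cxcl2 and Cxcl2 above Cxcl14 in 5 of 6 samples each. The plot of FPKM by sample shows all members.

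**Figure D1:**
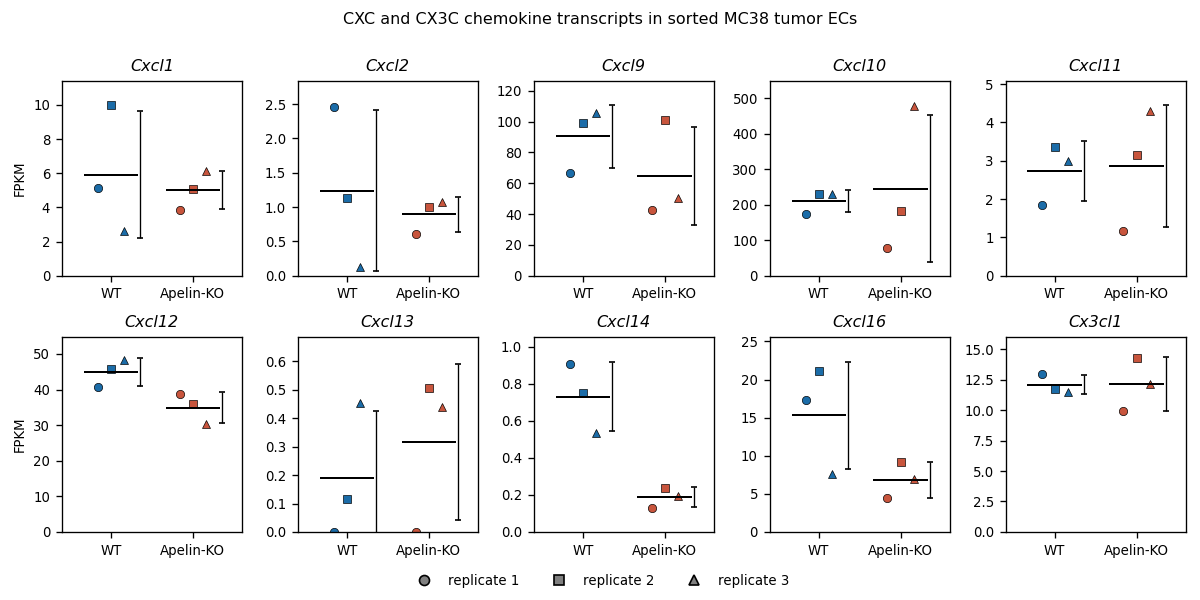
FPKM of the 10 CXC and CX3C chemokines in each tumor EC sample (circle, square and triangle for replicates 1, 2 and 3), with 1 panel and 1 linear axis from 0 per gene. Horizontal lines are means and vertical bars are SD (n = 3), cut off at 0 for Cxcl13. Only Cxcl12 and Cxcl14 have every WT sample above every Apelin-KO sample, and Cxcl10 spans 77.4 to 477 FPKM in Apelin-KO ECs.

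None of the members had an adjusted p under 0.05 in limma. Of the 8 members that passed the filter on low values, 2 had an unadjusted p under 0.05, Cxcl12 and Cxcl16, both higher in WT ECs. Among all genes tested, 5.17% were higher and 4.25% lower in WT ECs at that threshold. The groups did not overlap for 1 of the 8, Cxcl12, with WT higher. Over all genes tested, the groups did not overlap with WT higher for 6.61% and with WT lower for 7.77%. On the log2(FPKM + 1) scale the 8 differences had a positive sign, as had 5209 of all 10964, with a median of 0.13 against -0.01 over all genes tested. By means of FPKM, Cxcl10, Cxcl11 and Cx3cl1 were higher in Apelin-KO ECs. Those of Cxcl1, Cxcl2, Cxcl10, Cxcl11 and Cx3cl1 changed sign in at least 1 of the alternatives, such as leaving out a sample, and those of Cxcl9, Cxcl12 and Cxcl16 in none of 15. Cxcl13 and Cxcl14 fell below the filter.

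**Figure D2:**
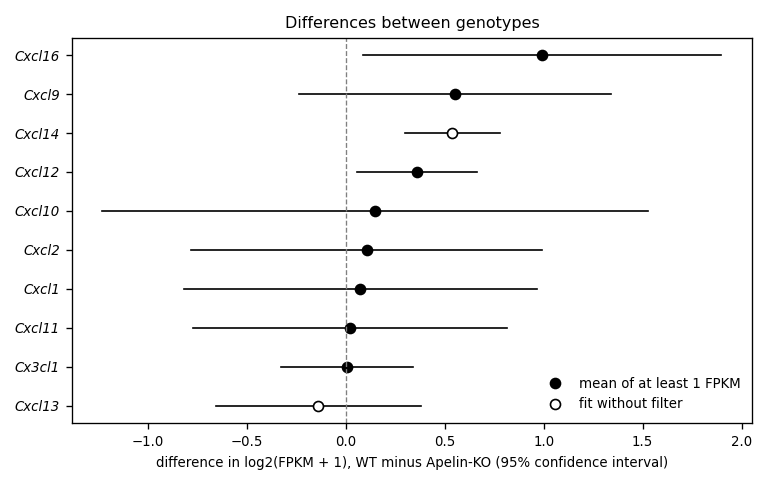
Difference in log2(FPKM + 1), WT minus Apelin-KO, for each member with its 95% confidence interval from limma, in order of size. Filled points are genes whose mean reached 1 FPKM, and open points are Cxcl13 and Cxcl14 from the fit without a filter. The intervals of Cxcl12, Cxcl14 and Cxcl16 lie above 0, and the other 7 include 0.

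The NF-κB-induced neutrophil chemoattractants were low and did not separate the genotypes. Cxcl1 was 5.15, 9.98 and 2.63 FPKM in WT 1, 2 and 3 and 3.87, 5.10 and 6.10 FPKM in Apelin-KO 1, 2 and 3. The highest and the lowest value were both in WT samples. The difference was 0.07 (95% confidence interval -0.82 to 0.97, adjusted p = 0.968 from limma). Cxcl2 was 2.46, 1.14 and 0.124 FPKM in WT ECs and 0.606, 0.996 and 1.08 FPKM in Apelin-KO ECs. WT again held both ends, with 19.8-fold between its highest and lowest sample against 1.78-fold among Apelin-KO samples. WT 3 was lowest for both genes, at about 2.1 estimated reads for Cxcl2. The difference for Cxcl2 was 0.11 (-0.78 to 0.99, adjusted p = 0.949 from limma). The related neutrophil ligands Cxcl3 and Cxcl5 and the lung-restricted Cxcl15 were listed at 0 in all 6 samples. So were the neutrophil receptors Cxcr1 and Cxcr2.

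The interferon-induced ligands of Cxcr3 made up most of the family's signal. Cxcl9 was 67.0, 99.1 and 105 FPKM in WT 1, 2 and 3 and 42.6, 101 and 50.7 FPKM in Apelin-KO 1, 2 and 3. A pair of Apelin-KO samples lay below every WT sample, and Apelin-KO 2 lay among the WT samples. The means were 90.5 ± 20.6 and 64.8 ± 31.7 FPKM (SD, n = 3) for WT and Apelin-KO. The difference was 0.55 (standard error 0.33, 95% confidence interval -0.24 to 1.34, adjusted p = 0.635 from limma), with an exact permutation p of 0.3. It was 0.92 (adjusted p = 0.392 from limma) without Apelin-KO 2, 0.30 without Apelin-KO 1 (adjusted p = 0.751) and 0.27 with sample weights (adjusted p = 0.814).

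Cxcl10 was 175, 229 and 229 FPKM in WT 1, 2 and 3 and 77.4, 182 and 477 FPKM in Apelin-KO 1, 2 and 3. The WT samples lay within 1.31-fold of each other, while the Apelin-KO samples spread over 6.16-fold and held both the lowest and the highest value. The means were 211 ± 31.4 and 245 ± 207 FPKM (SD, n = 3), and the difference was 0.15 (standard error 0.58, -1.23 to 1.52, adjusted p = 0.957 from limma). The direction hung on single samples. It was 0.81 (adjusted p = 0.720 from limma) without Apelin-KO 3 and -0.49 (adjusted p = 0.680) without Apelin-KO 1.

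Cxcl11 was far lower, at 1.85, 3.37 and 2.99 FPKM in WT ECs and 1.16, 3.16 and 4.29 FPKM in Apelin-KO ECs. Its lowest and highest samples were those of Cxcl10. The difference was 0.02 (-0.77 to 0.82, adjusted p = 0.991 from limma). Together the 3 transcripts took 75.4%, 78.5% and 82.6% of the summed FPKM of the 10 members in the WT samples. In the Apelin-KO samples their share was 67.7%, 81.2% and 90.3%. The receptor Cxcr3, carried by T cells and NK cells, was at most 0.484 FPKM in any sample.

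In 5 of the 6 samples Cxcl10 and Cxcl9 kept a like proportion. The ratio of Cxcl10 to Cxcl9 FPKM was 2.61, 2.31 and 2.17 across the WT samples. Across the Apelin-KO samples it was 1.82, 1.80 and 9.40. Cxcl10 alone took 81.0% of the members' summed FPKM in Apelin-KO 3 and 43.3% to 56.1% in the other samples. The log2 ratio did not differ between genotypes beyond the spread (WT minus Apelin-KO -0.41, two-sided exact permutation p = 1, where 0.1 is the smallest that 3 against 3 samples allow). Without Apelin-KO 3, left out after its values were seen, the difference in the log2 ratio was 0.38.

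**Figure D3:**
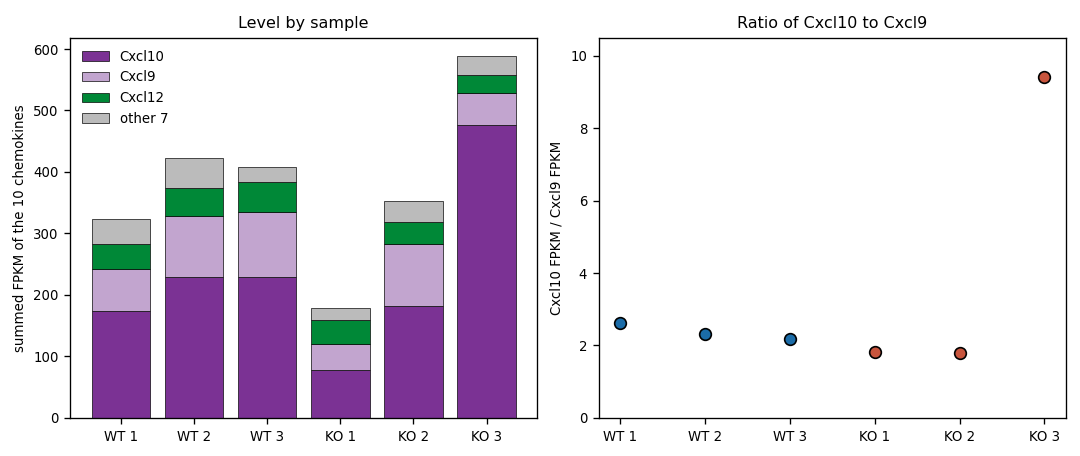
Left, FPKM of Cxcl10, Cxcl9, Cxcl12 and the other 7 members stacked for each sample (linear axis from 0). Right, ratio of Cxcl10 to Cxcl9 FPKM in each sample (blue WT, red Apelin-KO). The ratio is 1.80 to 2.61 in 5 samples and 9.40 in Apelin-KO 3.

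Genes of interferon-γ signaling, which induces these ligands, were compared across the same samples. Ifng itself was listed at 0 in 5 samples and was 0.442 FPKM in WT 2. Of the 7 other genes of that list, 1 was highest in Apelin-KO 3, against 24.9% of all genes tested. This was the kinase Jak2, at 36.4 FPKM against 24.6 to 31.1 FPKM in the other 5 samples. Ifngr1, which encodes a chain of the interferon-γ receptor and was the most abundant gene of the list, was 121, 135 and 144 FPKM in WT ECs and 147, 132 and 134 FPKM in Apelin-KO ECs. None of the 7 had an unadjusted p under 0.05 or groups that did not overlap, and their median difference was -0.02.

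In the list of NF-κB, TNF and IL-1 signaling, 6 of 10 tested genes were highest in Apelin-KO 3, again against 24.9% of all genes tested. Among them were Nfkbia, the NF-κB-induced inhibitor of NF-κB and the most abundant of the list, at 308 FPKM against 248 to 285 FPKM in the other 5 samples, and Tnfaip3, another induced inhibitor, at 9.47 FPKM against 3.65 to 7.44. Il6, an inflammatory cytokine, was 15.9 FPKM in Apelin-KO 3 and 5.43 to 8.91 FPKM in the others. Ifng, Jak2, Tnfaip3 and Il6 were picked for naming after their values were seen, and whether the levels of either list relate to that of Cxcl10 was not tested. Of the 10 genes, none had an unadjusted p under 0.05, and the median difference was -0.14. The groups did not overlap for the NF-κB subunits Nfkb2, with WT higher, and Rela, with WT lower, against 6.61% and 7.77% of all genes tested. Nfkb2 was 22.2, 22.9 and 19.8 FPKM in WT ECs and 18.4, 18.5 and 19.1 FPKM in Apelin-KO ECs (difference 0.20, adjusted p = 0.573 from limma). Rela was 63.5, 63.2 and 64.6 FPKM in WT ECs and 66.6, 69.3 and 77.0 FPKM in Apelin-KO ECs (-0.15, adjusted p = 0.661).

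Cxcl12, which holds and attracts Cxcr4-bearing cells, was the 1 tested member with groups that did not overlap. It was 40.7, 45.8 and 48.4 FPKM in WT 1, 2 and 3 and 38.7, 35.9 and 30.2 FPKM in Apelin-KO 1, 2 and 3. The groups did not overlap, with WT 1 and Apelin-KO 1 the closest. The means were 45.0 ± 3.88 and 34.9 ± 4.35 FPKM (SD, n = 3), so that Apelin-KO ECs had 77.7% of the WT level. The difference was 0.36 (standard error 0.13, 95% confidence interval 0.06 to 0.66, p = 0.0266, adjusted p = 0.509 from limma), and the exact permutation p was 0.1, the smallest possible. The unadjusted p exceeded 0.05 without WT 2 (0.0694), WT 3 (0.0845) or Apelin-KO 3 (0.0739), and with the replicate number as a block (0.0652). Fewer cells that make a transcript and less of it per cell cannot be told apart in bulk samples, here or for any other member.

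The receptors of Cxcl12 were themselves well represented. Cxcr4, its signaling receptor, which tip cells of growing vessels also carry, was 45.3, 45.5 and 69.1 FPKM in WT ECs and 41.3, 61.8 and 73.8 FPKM in Apelin-KO ECs. The groups overlapped over nearly their whole range, with a difference of -0.13 (-0.73 to 0.46, adjusted p = 0.894 from limma). Ackr3, which takes up Cxcl12, was higher still at 160, 169 and 219 FPKM in WT ECs and 175, 193 and 178 FPKM in Apelin-KO ECs. The means were 182 ± 31.7 and 182 ± 9.73 FPKM (SD, n = 3), with a difference of -0.01 (-0.34 to 0.32, adjusted p = 0.990 from limma) whose sign changed with the scaling between samples.

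Cxcl13, the B cell chemoattractant, was at the limit of detection. It was listed at 0, 0.116 and 0.455 FPKM in WT ECs and 0, 0.507 and 0.441 FPKM in Apelin-KO ECs, or between 0 and 4.90 estimated reads per sample. No difference was detectable at this depth. Its receptor Cxcr5 was listed at 0 in 4 samples and did not exceed 0.131 FPKM.

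Cxcl14 was the member with the largest relative difference, at a very low level. It was 0.907, 0.750 and 0.536 FPKM in WT 1, 2 and 3 and 0.131, 0.239 and 0.195 FPKM in Apelin-KO 1, 2 and 3. The groups did not overlap with WT higher, and over the 16341 genes above 0 in a sample this held for 6.65%. The means were 0.731 ± 0.186 and 0.188 ± 0.0543 FPKM (SD, n = 3), a 3.88-fold ratio. It rests on about 14.9, 10.9 and 7.93 estimated reads in the WT samples and on 1.99, 3.96 and 2.97 in the Apelin-KO samples. From the summed 34 and 9 reads, the exact 95% interval of the ratio ran from 1.82 to 9.20, for counting error only. With no filter on low values the difference was 0.54 (standard error 0.10, 0.30 to 0.78, adjusted p = 0.510 from limma), and the exact permutation p was 0.1. With a pseudocount of 0.1 FPKM as well it was 1.52 (standard error 0.23, adjusted p = 0.319). The study's own comparison used these same samples, and the members were chosen with earlier results of these data known. The direction of Cxcl14 here is therefore not independent evidence.

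Cxcl16, a transmembrane chemokine and scavenger receptor, had the largest difference among the tested members, and its groups overlapped. It was 17.3, 21.2 and 7.55 FPKM in WT 1, 2 and 3 and 4.44, 9.20 and 6.94 FPKM in Apelin-KO 1, 2 and 3. WT 1 and WT 2 lay above all other samples, while WT 3 lay below Apelin-KO 2. The means were 15.3 ± 7.02 and 6.86 ± 2.38 FPKM (SD, n = 3), a 2.24-fold ratio. The difference was 0.99 (standard error 0.38, 0.08 to 1.90, p = 0.0362, adjusted p = 0.515 from limma; exact permutation p = 0.2). It was 1.40 (adjusted p = 0.137 from limma) without WT 3. The unadjusted p exceeded 0.05 without WT 1 (0.0996), WT 2 (0.113), Apelin-KO 1 (0.116) or Apelin-KO 3 (0.0715), with unmoderated variances (0.116) or without a filter (0.0535). Cxcr6, its receptor on T cells and NKT cells, was 0.639, 0.524 and 0.322 FPKM in WT ECs and 0, 0.057 and 0.312 FPKM in Apelin-KO ECs. The groups did not overlap, as for 6.65% of the genes above 0 in a sample, with WT 3 and Apelin-KO 3 nearly tied, and the gene fell below the filter.

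Cx3cl1, the membrane-bound fractalkine of inflamed endothelium, was even across samples. It was 13.0, 11.7 and 11.5 FPKM in WT 1, 2 and 3 and 9.94, 14.3 and 12.2 FPKM in Apelin-KO 1, 2 and 3. Apelin-KO samples held both the lowest and the highest value. The means were 12.1 ± 0.801 and 12.1 ± 2.19 FPKM (SD, n = 3), with a difference of 0.01 (-0.33 to 0.34, adjusted p = 0.994 from limma). Cx3cr1, its receptor on monocytes and macrophages, was 6.10, 12.3 and 2.32 FPKM in WT ECs and 0.599, 3.36 and 2.58 FPKM in Apelin-KO ECs. It was highest in WT 2 and lowest in Apelin-KO 1, with overlapping groups and a difference of 1.22 (-0.10 to 2.53, adjusted p = 0.542 from limma).

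**Figure D4:**
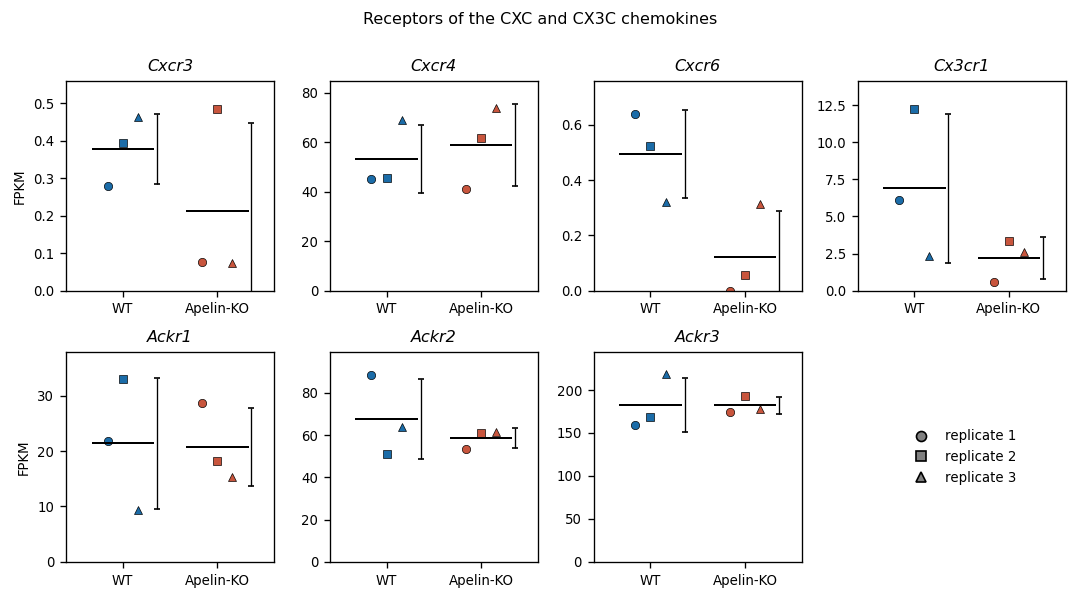
FPKM of the detected receptors of these chemokines in each sample, with 1 linear axis from 0 per gene, means (lines) and SD (bars, n = 3). Bars that would reach below 0 end at the axis. Ackr3 and Cxcr4 are far above Cxcr3 and Cxcr6, which stay below 1 FPKM, and Cx3cr1 is highest in WT 2.

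The remaining receptors and ligands overlapped between the genotypes. Ackr1, which carries chemokines across venular endothelium, was 21.8, 33.0 and 9.36 FPKM in WT ECs and 28.6, 18.1 and 15.4 FPKM in Apelin-KO ECs. Ackr2, a scavenger of CC chemokines, was 88.3, 51.1 and 64.0 FPKM in WT ECs and 53.4, 60.8 and 61.7 FPKM in Apelin-KO ECs. Ackr4 did not exceed 0.111 FPKM. The platelet chemokine Pf4 was 6.18, 8.72 and 5.42 FPKM in WT ECs and 3.91, 7.39 and 4.15 FPKM in Apelin-KO ECs (difference 0.36, adjusted p = 0.674 from limma). Cxcl17 did not exceed 0.571 FPKM, and the platelet chemokine Ppbp did not exceed 1.49 FPKM.

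The genes that cut or present these ligands were compared next. Of 4 tested genes among sheddases and proteases, 1 had an unadjusted p under 0.05 with WT higher, against 5.17% of all genes tested, and the median difference was 0.37. Adam10, which sheds Cxcl16 and Cx3cl1 and was the most abundant of them, was 196, 161 and 192 FPKM in WT ECs and 179, 201 and 215 FPKM in Apelin-KO ECs (-0.12, adjusted p = 0.791 from limma). The gene that passed was Mmp9, a gelatinase that trims several chemokines, named after its values were seen. It was 42.2, 36.1 and 18.9 FPKM in WT ECs and 6.08, 19.4 and 16.4 FPKM in Apelin-KO ECs (difference 1.22, adjusted p = 0.513 from limma). Dpp4, which inactivates Cxcl10 and Cxcl12, was at most 0.161 FPKM in WT ECs and listed at 0 in each Apelin-KO sample. Its groups thus did not overlap with WT higher, as for 6.65% of the genes above 0 in a sample. It fell below the filter, at values near 0 in both genotypes.

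Of 11 tested genes of heparan sulfate synthesis and proteoglycans, 1 had an unadjusted p under 0.05 with WT higher, against 5.17% of all genes tested, and the median difference was 0.03. This was the syndecan Sdc2, at 12.0, 15.7 and 6.88 FPKM in WT ECs and 3.86, 5.96 and 6.80 FPKM in Apelin-KO ECs (difference 0.90, adjusted p = 0.501 from limma). The WT samples were all higher, WT 3 only narrowly, which held for 6.61% of all genes tested. The groups also did not overlap for Ext2, which extends the heparan sulfate chain, and for the syndecan Sdc3, both higher in Apelin-KO ECs as for 7.77% of all genes tested (-0.15 each, adjusted p = 0.640 and 0.665 from limma). Sdc3 was 160, 141 and 157 FPKM in WT ECs and 163, 167 and 179 FPKM in Apelin-KO ECs. The basement membrane proteoglycan Hspg2 was 108 to 124 FPKM in WT ECs and 117 to 135 FPKM in Apelin-KO ECs.

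Markers of cell types were compared across the same samples. Endothelial markers were high in every sample, with a summed level of 4345 to 5184 FPKM in WT and 5374 to 5663 FPKM in Apelin-KO samples. All 15 were lower in WT ECs by mean, 5 of them with an unadjusted p under 0.05 in limma against 4.25% of all genes tested, and the most abundant, Esam, was 1023 FPKM on average. The 20 hematopoietic markers summed to 449, 777 and 235 FPKM in WT 1, 2 and 3 and to 113, 274 and 255 FPKM in Apelin-KO 1, 2 and 3. By mean, 19 of 20 were higher in WT ECs, and 6 of the 13 tested had an unadjusted p under 0.05 with WT higher against 5.17% of all genes, with a median difference of 1.19. Lyz2 led this list, and none of the 20 was at 0 in all samples. Ptprc, which encodes the CD45 that was gated out, ranged from 0.043 to 4.84 FPKM.

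The order of the samples by Cxcl16, which macrophages and dendritic cells also make, began WT 2, WT 1, Apelin-KO 2 and ended with Apelin-KO 1. The order by the summed hematopoietic markers began and ended alike. Lyz2 was the largest part of that sum, and some single markers of the list gave another order. Apelin-KO 1 was lowest for 13 of 13 tested hematopoietic markers and for 5 of 8 tested members, against 19.1% of all genes tested. Fibroblast markers, led by Col1a1, summed to 339, 353 and 202 FPKM in WT ECs and 136, 180 and 209 FPKM in Apelin-KO ECs, with 9 of 10 higher in WT by mean and 5 of 7 tested at an unadjusted p under 0.05, against the same 5.17%. For 2 of the fibroblast markers, Dcn and Col6a3, the groups did not overlap with WT higher, against 6.61% of all genes tested. For Fap they did not overlap with WT lower, against 7.77% of all genes tested. Fap itself fell below the filter and is not among those genes. It was at most 0.133 FPKM in WT ECs and 0.337 to 0.468 FPKM in Apelin-KO ECs, and was named after its values were seen. Col6a3 and Dcn, a proteoglycan of the matrix, were likewise named after their values were seen. Dcn was 40.9, 30.0 and 36.5 FPKM in WT ECs and 14.7, 25.3 and 18.5 FPKM in Apelin-KO ECs. Cxcl12 was highest in WT 3 (48.4 FPKM) and lowest in Apelin-KO 3 (30.2 FPKM), where fibroblast markers summed to 202 and 209 FPKM. The part of hematopoietic cells and fibroblasts in the levels of Cxcl12, Cxcl14 and Cxcl16 was not tested.

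**Figure D5:**
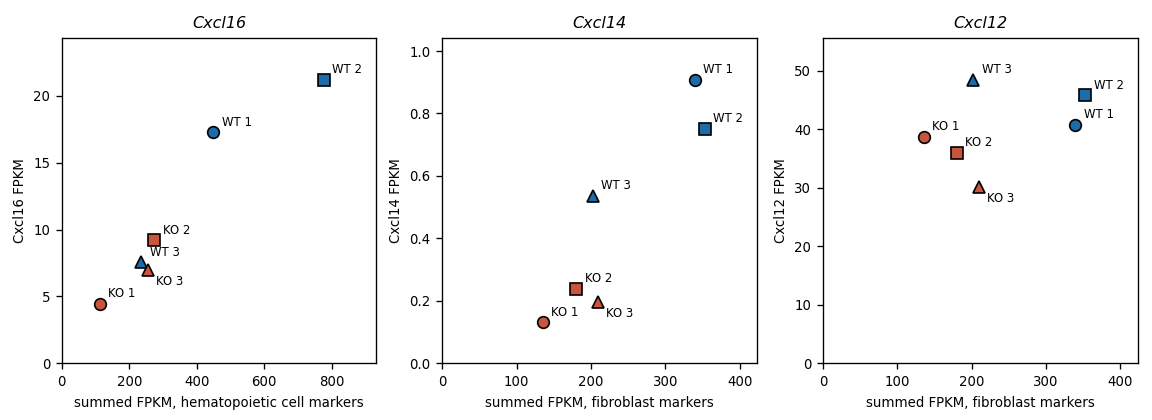
FPKM of Cxcl16 against the summed FPKM of 20 hematopoietic markers, and of Cxcl14 and Cxcl12 against the summed FPKM of 10 fibroblast markers, with 1 point per sample (blue WT, red Apelin-KO, linear axes from 0). WT 1 and WT 2 are highest on both axes in the panels of Cxcl16 and Cxcl14, and WT 3 has the highest Cxcl12.

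Markers of the remaining cell types are given by their sums. Neutrophil markers summed to 1.06 to 2.39 FPKM in WT ECs and 1.13 to 3.37 FPKM in Apelin-KO ECs, with S100a8 the most abundant and Cxcr2 at 0 in every sample. Platelet markers summed to 8.47 to 10.4 and 6.25 to 8.81 FPKM, with Pf4 the most abundant and Gp6 at 0. Pericyte markers, led by Kcnj8, summed to 142 to 181 and 183 to 207 FPKM, with the higher sums in Apelin-KO ECs. Most of each sum came from Kcnj8 and Abcc9, the latter named after its values were seen. They averaged 85.5 and 69.1 FPKM, and no other of the 10 averaged above 7.06 FPKM. Of the 10, 8 were lower and 2 higher in WT ECs by mean, and none of the 6 tested had an unadjusted p under 0.05 in limma. Tumor epithelial markers summed to 7.94 to 12.9 and 9.15 to 21.4 FPKM, most of it from Krt20, which was 20.6 FPKM in Apelin-KO 3. By mean, 8 of the 9 were higher in WT ECs, none of those above 1.48 FPKM in any sample, and Krt20 alone was higher in Apelin-KO ECs.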

How the data were processed

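Tumor ECs of 3 WT and 3 Apelin-KO samples were profiled with stranded mRNA libraries read in a single-end mode. The authors mapped the reads to mm10 and computed FPKM with Cufflinks. The submitters' processing notes name TopHat2 2.1.1, Bowtie2 2.2.4, SAMtools 1.0 and Cufflinks 2.2.1, and the study's methods name other versions of the first 3. The deposited files hold 1 FPKM per gene symbol and sample with neither counts nor depth. The annotation is not given in the sources used here.

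FPKM were used as deposited, with a pseudocount of 1 FPKM. The test was limited to genes averaging 1 FPKM or more, 10964 of 24346 genes and 8 of 10 members. The tool was limma 3.58.1 in R 4.3.3, with moderated variances, no intensity trend and no block. Since FPKM values are not counts, no count model was run. Single values were also compared by an exact permutation test. Python 3.11.15 with pandas 2.3.3 and matplotlib 3.10.9 served for tables and plots.

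For 3742 genes annotated with 1 transcript, low FPKM rise in steps of 1 read, and these steps gave an estimate of the depth, assuming 200-base fragments. Between 69.2% and 72.3% of low values lay within 0.1 of a whole read. Reads per gene are therefore estimates. Positions come from the GENCODE annotation of GRCm38.

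The members and the gene lists were chosen with earlier results of these data known. All members, Apln and the receptors were named. From each other pathway list, the genes whose groups did not overlap were named, along with the most abundant of the rest. From each marker list, the most abundant gene and those at 0 were named. The other CXC ligands and Ptprc were named after their values were seen, as were the genes so marked in the text. Alternatives changed the pseudocount, the filter, the scaling between samples, the variance, the sample weights or the samples kept. Another used the replicate number as a block.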

Additional observations from a re-analysis of the deposited data

How the results depend on the processing

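No member had an adjusted p under 0.05 in limma under any alternative in which it was tested, 15 at most and, for Cxcl13 and Cxcl14, 10 without a filter. Of all genes tested, 1 had an adjusted p under 0.05. This count was 2 with no filter, with a mean of at least 5 FPKM or with an intensity trend, 0 with the own variance of each gene, and 0 to 3 when 1 sample was left out. The 1033 genes with an unadjusted p under 0.05 became 536 to 1228 when 1 sample was left out. Members with an unadjusted p under 0.05 numbered 2. They were 1 with the own variance of each gene, where the p of Cxcl16 was 0.116, and 0 to 3 when 1 sample was left out (0 without WT 2 or Apelin-KO 3, and 3 without Apelin-KO 2). Without a filter the 2 were Cxcl12 and Cxcl14, since the p of Cxcl16 was then 0.0535.

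Correlations of the deviations from group means were -0.14, 0.21 and -0.02 for equal replicate numbers and -0.20 to 0.21 for unequal ones. They cannot decide whether the numbers pair the samples, since deviations from a mean of 3 samples sum to 0. With the replicate block, 1 gene had an adjusted p under 0.05 and 893 an unadjusted p under 0.05, and 1 member passed the latter, since the p of Cxcl12 was 0.0652. The unadjusted p of Cxcl9 from limma was 0.0583 with the block and 0.142 without it.

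The difference of Cxcl2 was -0.12 with a pseudocount of 0.1 FPKM, and with sample weights those of Cxcl11 and Cx3cl1 were -0.0599 and -0.0535. When 1 sample was left out, the difference ranged from -0.33 to 0.47 for Cxcl1, from -0.00917 to 0.53 for Cxcl2 where it passed the filter, from -0.49 to 0.81 for Cxcl10, from -0.35 to 0.29 for Cxcl11 and from -0.12 to 0.12 for Cx3cl1. It kept its sign for Cxcl9 (0.27 to 0.92), Cxcl12 (0.26 to 0.43) and Cxcl16 (0.72 to 1.40) under all 15 alternatives, and for Cxcl14 (0.47 to 1.52, adjusted p 0.200 to 0.886) under the 10 run without a filter. Without WT 1, Cxcl2 was below the filter, and the difference from a fit without a filter, run after seeing the data, was -0.28. The causes of these shifts were not tested. Depth limits Cxcl13, Cxcl14 and Cxcl2 the most, at a few estimated reads in some samples.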
